A study of Mus musculus with 22 samples.

Results

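Vps37b and Abcb9 are neighbouring genes on mouse chromosome 5, and their transcripts were examined together with those of 7 genes around them in CD11b+ cells isolated from the brains of mouse pups. The 9 genes, out of 56691 in the deposited tables, are Hip1r, Vps37b, Abcb9, Ogfod2, Arl6ip4, Pitpnm2, Mphosph9, Cdk2ap1 and Sbno1 in chromosome order. Vps37b and Abcb9 were chosen by their measured counts, which were lower in HIE than in control animals at P14, and the listed neighbours were added to ask whether that decrease was confined to these genes. The P14 HIE and control values of these genes are therefore a description, and no test of them is used as support.

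The study modelled neonatal hypoxic-ischemic encephalopathy (HIE) in CF-1 mice, an outbred strain, labelled wildtype. In the HIE groups the pregnant dam was given lipopolysaccharide (LPS), which comes from bacterial cell walls and provokes an immune response, on E18, and the pups had a short hypoxia on P6. Controls had saline and normoxia in place of these. The samples were 4 HIE and 4 control animals at P14, 4 animals labelled hypoxia at P14, whose treatment the methods do not describe further, 4 HIE animals at P7, all labelled male, and 4 early controls. The early controls are labelled P8, P9, P10 and P11, 1 animal each, whereas the methods give P7 for this experiment. These controls and each P14 group hold both sexes. CD11b, a cell-surface integrin that microglia carry in common with other myeloid cells, was used to enrich the cells on magnetic beads, so the preparations can hold other cells. In such bulk samples fewer cells of a type and less RNA per cell cannot be told apart.

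There were 22 libraries from 20 animals, since 2 HIE animals at P14 had 2 libraries each, which were summed. Total counts per library were 29751540 to 46404123 at P14 and 70191584 to 83469067 in the early samples. Animals share name prefixes in pairs, such as P6H7 or N5. The methods do not define these prefixes, and a litter here means animals that share one. Every litter belongs to 1 treatment group, and each group holds 2 litters of 2 animals, so litter and treatment cannot be told apart. None of 11 microglia marker genes, among them P2ry12, Tmem119 and Cx3cr1, was at 0 in any animal. Their mean log2 CPM per animal was 9.77 to 10.7 over the 12 animals at P14 and 9.78 to 10.1 in the HIE animals at P7. The early controls stood apart, with 6.34 to 6.99 in litter P6H63 and 9.52 to 9.67 in litter P6H55. CPM here is the usual library-size-scaled count after TMM scaling, an adjustment for library size and RNA composition, and log2 CPM values carry a prior count of 2.

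Vps37b is a subunit of ESCRT-I, the complex that sorts ubiquitin-tagged membrane proteins into vesicles inside endosomes on their way to the lysosome. Abcb9 encodes a transporter of the ATP-binding cassette family in the lysosomal membrane that carries peptides into the lysosome. Both thus belong to the endosome and lysosome system, on which microglia rely to break down what they engulf.

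In the GRCm39 assembly Vps37b (ENSMUSG00000066278.7) lies at chr5:124142013-124170429 and Abcb9 (ENSMUSG00000029408.14) at chr5:124199593-124233903. Both genes are protein coding and lie on the minus strand, with 29.2 kb between them. On one side Hip1r lies on the plus strand, and its 3′ end shares 1.6 kb with the 3′ end of Vps37b. On the other side lies the long non-coding RNA gene Gm16001, on the minus strand, with its 3′ end 8.7 kb beyond Abcb9. It shares 371 bases with Ogfod2 on the opposite strand. Libraries were stranded, but whether the counting used strand is not given in the sources used here, so reads in these shared stretches may be counted for either gene. Arl6ip4 follows Ogfod2 after 321 bases and Pitpnm2 follows Arl6ip4 after 478 bases. The 9 genes span 452.4 kb in all.

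The promoter regions of Vps37b, Abcb9 and Ogfod2 are printed because the first pair varied together between animals and Ogfod2, the next member along the chromosome, did not. Each run holds the 250 bases before and the 50 bases after the start of the gene's canonical GENCODE transcript, 300 in all, in GRCm39, 5′ to 3′ on the gene's own strand. Capitals mark matches on either strand to the motifs searched, which were the GC box GGGCGG, the CCAAT box CCAAT, the TATA box TATAAA, the E-box CACGTG, the ETS site CCGGAAG and the cAMP response element TGACGTCA. The last was added after the Vps37b sequence had been seen.
Vps37b, chr5:124170357-124170656, minus strand: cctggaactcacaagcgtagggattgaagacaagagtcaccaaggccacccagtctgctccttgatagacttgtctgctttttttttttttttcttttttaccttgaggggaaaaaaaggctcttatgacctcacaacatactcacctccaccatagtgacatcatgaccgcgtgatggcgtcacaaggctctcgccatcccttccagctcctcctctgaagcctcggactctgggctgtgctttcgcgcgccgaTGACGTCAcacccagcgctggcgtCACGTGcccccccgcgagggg
Abcb9, chr5:124233835-124234134, minus strand: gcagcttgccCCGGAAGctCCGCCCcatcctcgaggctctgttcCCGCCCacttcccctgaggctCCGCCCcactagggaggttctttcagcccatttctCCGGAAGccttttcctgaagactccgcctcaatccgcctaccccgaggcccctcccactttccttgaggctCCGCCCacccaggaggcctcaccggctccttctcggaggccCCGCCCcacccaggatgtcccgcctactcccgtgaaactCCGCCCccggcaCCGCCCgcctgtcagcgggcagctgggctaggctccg
Ogfod2, chr5:124249946-124250245, plus strand: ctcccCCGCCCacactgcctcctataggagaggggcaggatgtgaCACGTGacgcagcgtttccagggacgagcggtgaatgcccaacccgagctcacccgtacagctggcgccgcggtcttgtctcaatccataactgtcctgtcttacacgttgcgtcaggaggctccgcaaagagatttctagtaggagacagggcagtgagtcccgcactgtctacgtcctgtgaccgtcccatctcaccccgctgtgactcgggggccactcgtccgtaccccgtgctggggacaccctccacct

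The Vps37b promoter held 1 E-box and 1 cAMP response element, the Abcb9 promoter 7 GC boxes and 2 ETS sites, and the Ogfod2 promoter 1 GC box and 1 E-box. Vps37b and Abcb9 had none of the 6 motifs in common in these windows. Among 21770 promoters of the same length, 42.5% held a GC box, 7.81% an E-box, 10.3% an ETS site and 2.44% a cAMP response element. The CCAAT box, found in 39.9% of promoters, and the TATA box, found in 13.2%, were in none of the 3 windows. GC content was 54.3% for Vps37b, 68.7% for Abcb9 and 62.0% for Ogfod2, with a median of 54.3% over all promoters. A match of letters is a description and does not show that a factor binds there.

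At P14 Vps37b and Abcb9 had less than the lowest control level in every HIE animal. For Vps37b the 4 controls had 105, 135, 125 and 108 CPM and the 4 HIE animals 46.0, 56.1, 38.0 and 47.9 CPM. For Abcb9 the controls had 20.4, 19.8, 22.7 and 16.1 CPM and the HIE animals 9.94, 8.28, 6.77 and 7.65 CPM. The groups did not overlap for either gene, and both HIE litters, P4H1 and P6H12, lay below both control litters, P4H4 and P6H8. The log2 fold change of HIE over control was -1.36 (SE 0.126) for Vps37b and -1.30 (SE 0.149) for Abcb9. Each HIE animal with 2 libraries gave similar values in both, with 57.3 and 54.8 CPM of Vps37b in one and 45.5 and 50.3 CPM in the other.

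**Figure D1:**
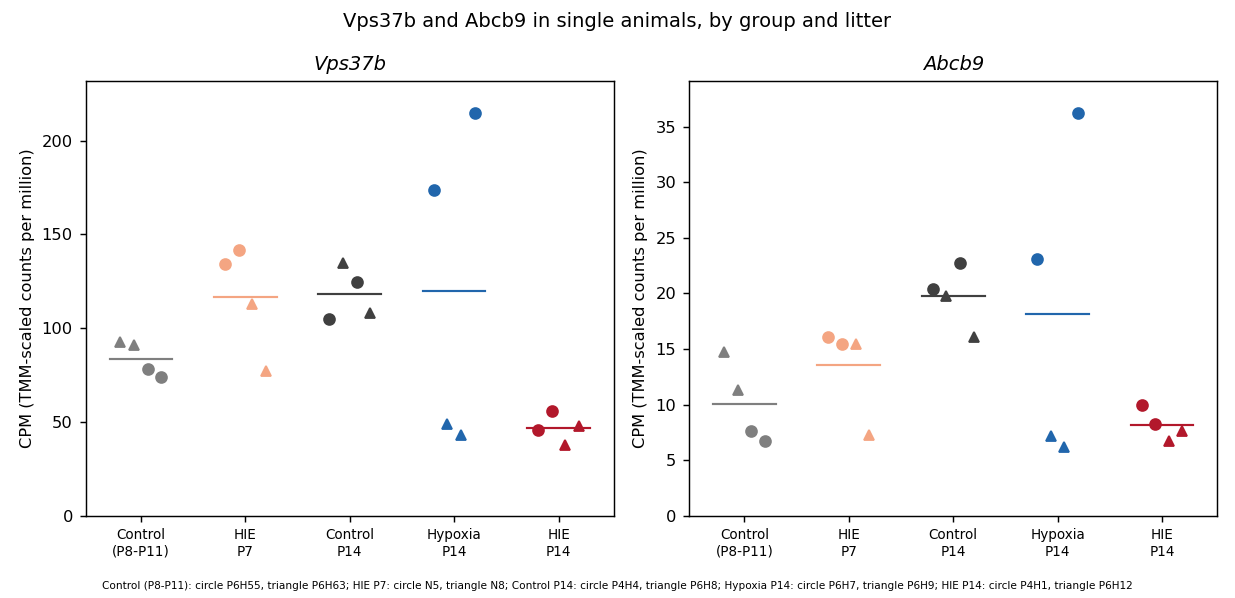
Vps37b (left) and Abcb9 (right) in each of the 20 animals, in CPM on a linear axis from 0, by group, with circles and triangles for the 2 litters of a group and a line at the group mean. The 4 HIE animals at P14 lie below the 4 controls at P14, and the hypoxia animals split by litter, with P6H7 above and P6H9 level with HIE.

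Among the other members, Hip1r and Pitpnm2 also lay lower in every HIE animal than in every control at P14, by smaller amounts. Hip1r, an adaptor that links clathrin-coated membrane to actin during endocytosis, had 36.3 to 49.2 CPM in controls and 25.2 to 36.0 CPM in HIE animals, with a log2 fold change of -0.45 (SE 0.149). Pitpnm2, a membrane-associated phosphatidylinositol transfer protein, had 26.3 to 36.0 CPM in controls and 20.4 to 24.8 CPM in HIE animals, with a log2 fold change of -0.47 (SE 0.117). The gap between the groups was narrow for Hip1r, whose highest HIE animal and lowest control both stood near 36 CPM.

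The remaining 5 members overlapped between HIE and control at P14. Their log2 fold changes were 0.16 (SE 0.132) for Ogfod2, which has an oxygenase domain, 0.07 (SE 0.138) for Arl6ip4, a nuclear protein linked to RNA splicing, and 0.20 (SE 0.101) for Mphosph9, a protein of centrioles. Cdk2ap1, which binds the cell cycle kinase CDK2, had 0.05 (SE 0.136), and Sbno1, a helicase-like regulator of transcription, had -0.08 (SE 0.119). On the log2 scale the changes of Vps37b and Abcb9 were the only ones beyond 1 among the 9 members, a size reached by 1.76% of the 20934 genes tested in that direction.

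By edgeR's quasi-likelihood test with Benjamini-Hochberg adjustment over all tested genes, Vps37b was called lower and the other 8 members were not, where 0.00478% of all genes, Vps37b alone, were called. Of the 9 members, 4 lay lower in every HIE animal than in every control, where 2.57% of all genes did. Since this comparison chose the genes, nothing is read from these counts. Without HIE replicate 1 or 4 or control replicate 2 or 3, Vps37b was no longer called, although its log2 fold change stayed between -1.44 and -1.27 with each animal left out in turn. Without control replicate 4, Abcb9 was called as well, and with the 3 P14 groups in 1 fit the adjusted p of Vps37b by edgeR was 0.354. Neuron marker genes were lower in HIE too, with a mean log2 CPM over 8 genes of 4.12 to 4.52 in HIE and 4.58 to 5.55 in control animals. Single neuron markers did not overlap for 3 of the 8 genes and none was at 0. Among markers of the other cell types examined, 1 of 7 astrocyte and 1 of 6 endothelial genes were higher in every HIE animal. No other marker was separated, and the part of these markers in the result was not tested.

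Within 1 Mb on either side of the pair, 66 of the 94 listed genes passed the filter on low counts at P14. In HIE against control their median log2 fold change was 0.06, beside 0.01 over all genes tested, and Vps37b was the single gene called. The largest changes outside the 9 members were those of Ccdc62, Hcar2, Gm15621, Gm37415 and Gm16001, at 0.77 (SE 0.263), -0.71 (SE 0.278), 0.68 (SE 0.511), -0.62 (SE 0.398) and 0.62 (SE 0.207). Ccdc62 encodes a coiled-coil protein and lies just beyond Hip1r. Hcar2 encodes a receptor for niacin and beta-hydroxybutyrate. Gm15621 is a processed pseudogene and Gm37415 a transcript without an assigned class in the annotation, and both had few reads. Ccdc62 and Gm16001 were higher in every HIE animal than in every control, as were 2.88% of all genes, the opposite direction to the pair they flank.

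**Figure D2:**
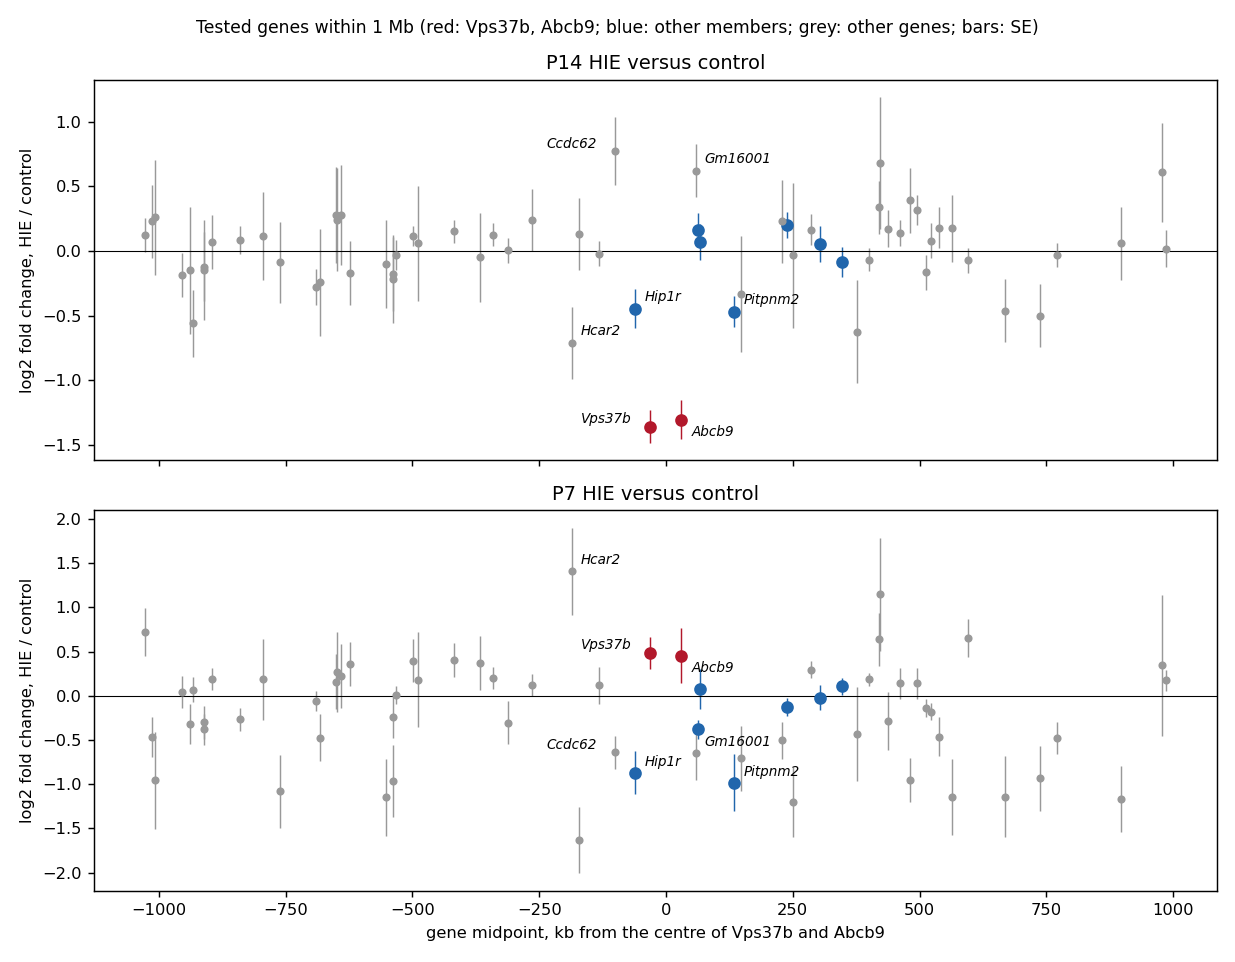
Log2 fold change of HIE over control, with its SE, for tested genes within 1 Mb of the pair, against the distance of the gene's midpoint from the centre of the pair in kb, at P14 (top) and P7 (bottom). At P14 the red points of Vps37b and Abcb9 lie near -1.36 and -1.30, away from the other genes, and at P7 both lie above 0.

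The hypoxia animals at P14 split by litter for both genes. Vps37b had 174 and 215 CPM in litter P6H7 and 49.0 and 43.0 CPM in litter P6H9. Abcb9 had 23.0 and 36.2 CPM in P6H7 and 7.16 and 6.19 CPM in P6H9. The P6H7 animals thus lay above every P14 control for both genes, and the P6H9 animals lay within or below the range of the HIE animals.

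The litters differed by 2.07 on the log2 scale for Vps37b and by 2.11 for Abcb9. Among the 9 members only these showed litters that did not overlap and differed by over 1, a pattern seen in 8.47% of 20688 genes between P6H7 and P6H9. The other 7 members differed between these litters by -0.38 to 0.45. In the other groups 0 members showed this pattern between P4H4 and P6H8 (5.03% of genes), 0 between P4H1 and P6H12 (7.8%), 0 between N5 and N8 (1.63%) and 1, Pitpnm2, between P6H63 and P6H55 (30.7%). The litter contrast was chosen after the values had been seen, and with 2 animals in each litter no test was made.

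Some cell markers also differed between litters P6H7 and P6H9 of the hypoxia group. All 8 oligodendrocyte markers and all 8 neuron markers were lower in both P6H7 animals than in both P6H9 animals, with mean log2 CPM of 5.91 to 6.22 against 7.07 to 7.51 and of 4.06 to 4.11 against 4.67 to 5.0. Of the 11 microglia markers 10 were higher in P6H7, with mean log2 CPM of 10.37 to 10.42 against 9.77 to 10.11. Of the other lists, 3 of 7 astrocyte, 1 of 5 neutrophil and 1 of 5 choroid plexus markers were lower in both P6H7 animals. Of 6 endothelial markers 3 were higher, and of 6 border macrophage markers 0 were separated either way. The share of all genes separated by any amount between these litters was not worked out. No gene of these lists was at 0 in any animal, and their part in the difference between litters was not tested.

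Against control the hypoxia group as a whole showed no call among the 9 members by edgeR's quasi-likelihood test or by DESeq2, where by edgeR 0.00955% of all genes were called. The log2 fold change was -0.02 (SE 0.466, adjusted p = 0.994) for Vps37b and -0.16 (SE 0.492, adjusted p = 0.944) for Abcb9. These standard errors were over 3 times those in HIE against control, and 1 member, Pitpnm2, had an unadjusted p under 0.05, as did 9.53% of all genes, with -0.52 (SE 0.181, adjusted p = 0.477). With the P6H9 animals as the hypoxia group the changes were -1.38 for Vps37b and -1.58 for Abcb9, and with the P6H7 animals they were 0.67 and 0.54. This comparison shares its controls with the one that chose the genes.

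HIE against hypoxia at P14 also gave no call among the members by edgeR's quasi-likelihood test or by DESeq2, where by edgeR 0.00955% of all genes were called. The log2 fold change of HIE over hypoxia was -1.37 (SE 0.471, adjusted p = 0.999) for Vps37b and -1.17 (SE 0.498, adjusted p = 0.999) for Abcb9, the 2 members with an unadjusted p under 0.05, where 4.53% of all genes had one. Against the P6H9 animals alone these changes were 0.04 and 0.30, and against the P6H7 animals alone -2.04 and -1.85. The HIE animals here are those that chose the genes.

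At P7, in animals that played no part in choosing the genes, Vps37b and Abcb9 were not lower in HIE. The groups compared also differ in labelled day and in their mix of sexes, and day cannot be told apart from treatment. Vps37b had 134, 141, 113 and 77.5 CPM in the HIE animals and 92.5, 90.9, 78.3 and 73.8 CPM in the early controls. Abcb9 had 16.1, 15.4, 15.4 and 7.30 CPM in the HIE animals and 14.7, 11.3, 7.58 and 6.68 CPM in the early controls. For both genes 3 of the 4 HIE animals lay above every control, and the fourth, an animal of litter N8, lay among the controls. All 6 endothelial, all 5 choroid plexus and 1 of 8 neuron markers were lower in every HIE animal than in every early control. So were 7.7% of all genes. Of the 11 microglia markers 7 were higher in every HIE animal, as were 2130 of the 22517 genes tested. No border macrophage, neutrophil, astrocyte or oligodendrocyte marker was separated either way. The part of these cell markers in the values was not tested.

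Neither gene passed edgeR's quasi-likelihood test at P7. The log2 fold change of HIE over control was 0.49 (SE 0.181, adjusted p = 0.156) for Vps37b and 0.45 (SE 0.310, adjusted p = 0.339) for Abcb9. None of the 9 members was called, where 0.0666% of all genes were, although 4 members had an unadjusted p under 0.05, as did 27.3% of all genes, and DESeq2 called 3, namely Hip1r, Ogfod2 and Pitpnm2, where it called 14.1% of the genes it gave an adjusted p. Under every alternative the 2 log2 fold changes stayed above 0, between 0.27 and 0.64 for Vps37b and between 0.14 and 0.94 for Abcb9. Whether the effect differed between P7 and P14 was not tested, because its P14 part chose the genes.

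At P7 Pitpnm2, Hip1r and Ogfod2 were lower in every HIE animal than in every early control, as were 7.7% of all genes. Pitpnm2 had 44.4 to 47.2 CPM in HIE animals, 128 and 138 CPM in the P6H63 controls and 50.5 and 52.7 CPM in the P6H55 controls. Hip1r had 18.8 to 21.6 CPM in HIE animals, 44.4 and 53.8 CPM in P6H63 and 22.9 and 27.6 CPM in P6H55. For Pitpnm2 and Hip1r the P6H63 controls thus lay farther above the HIE animals than the P6H55 controls. Ogfod2 had 6.65 to 7.71 CPM in HIE animals and a mean of 9.91 CPM in P6H63 and 9.19 CPM in P6H55, so both control litters lay above HIE.

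Their log2 fold changes were -0.98 (SE 0.325), -0.87 (SE 0.245) and -0.38 (SE 0.107) for Pitpnm2, Hip1r and Ogfod2, each with an adjusted p of 0.150 by edgeR's quasi-likelihood test. Without early control replicate 3, an animal of P6H55, all 3 were called, with -1.16, -1.02 and -0.39, in a fit that called 24.2% of all genes, 5588 of 23060. The P6H63 controls also had all 11 microglia, 6 border macrophage and 5 neutrophil markers below P6H55. All 7 astrocyte, 8 neuron and 6 endothelial markers and 4 of 5 choroid plexus markers lay above P6H55. Of 8 oligodendrocyte markers 3 lay above and 2 below. The part of these markers in these differences was not tested. The log2 fold changes of Mphosph9, Arl6ip4, Cdk2ap1 and Sbno1 at P7 were -0.13, 0.07, -0.02 and 0.11, and those of Arl6ip4, Mphosph9, Cdk2ap1 and Sbno1 changed sign under at least 1 alternative.

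Over all 20 animals Vps37b ranged from 38.0 to 215 CPM, a ratio of 5.66, and Abcb9 from 6.19 to 36.2 CPM, a ratio of 5.84. Pitpnm2 had the widest range of the members, at a ratio of 9.14, through the P6H63 controls, and Hip1r had 2.87. The other 5 members stayed within ratios of 1.51 to 1.97. Per kb of exon, Vps37b had the highest mean level of the 9, at 27.0 CPM per kb, and Abcb9 the lowest, at 1.46 CPM per kb.

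**Figure D3:**
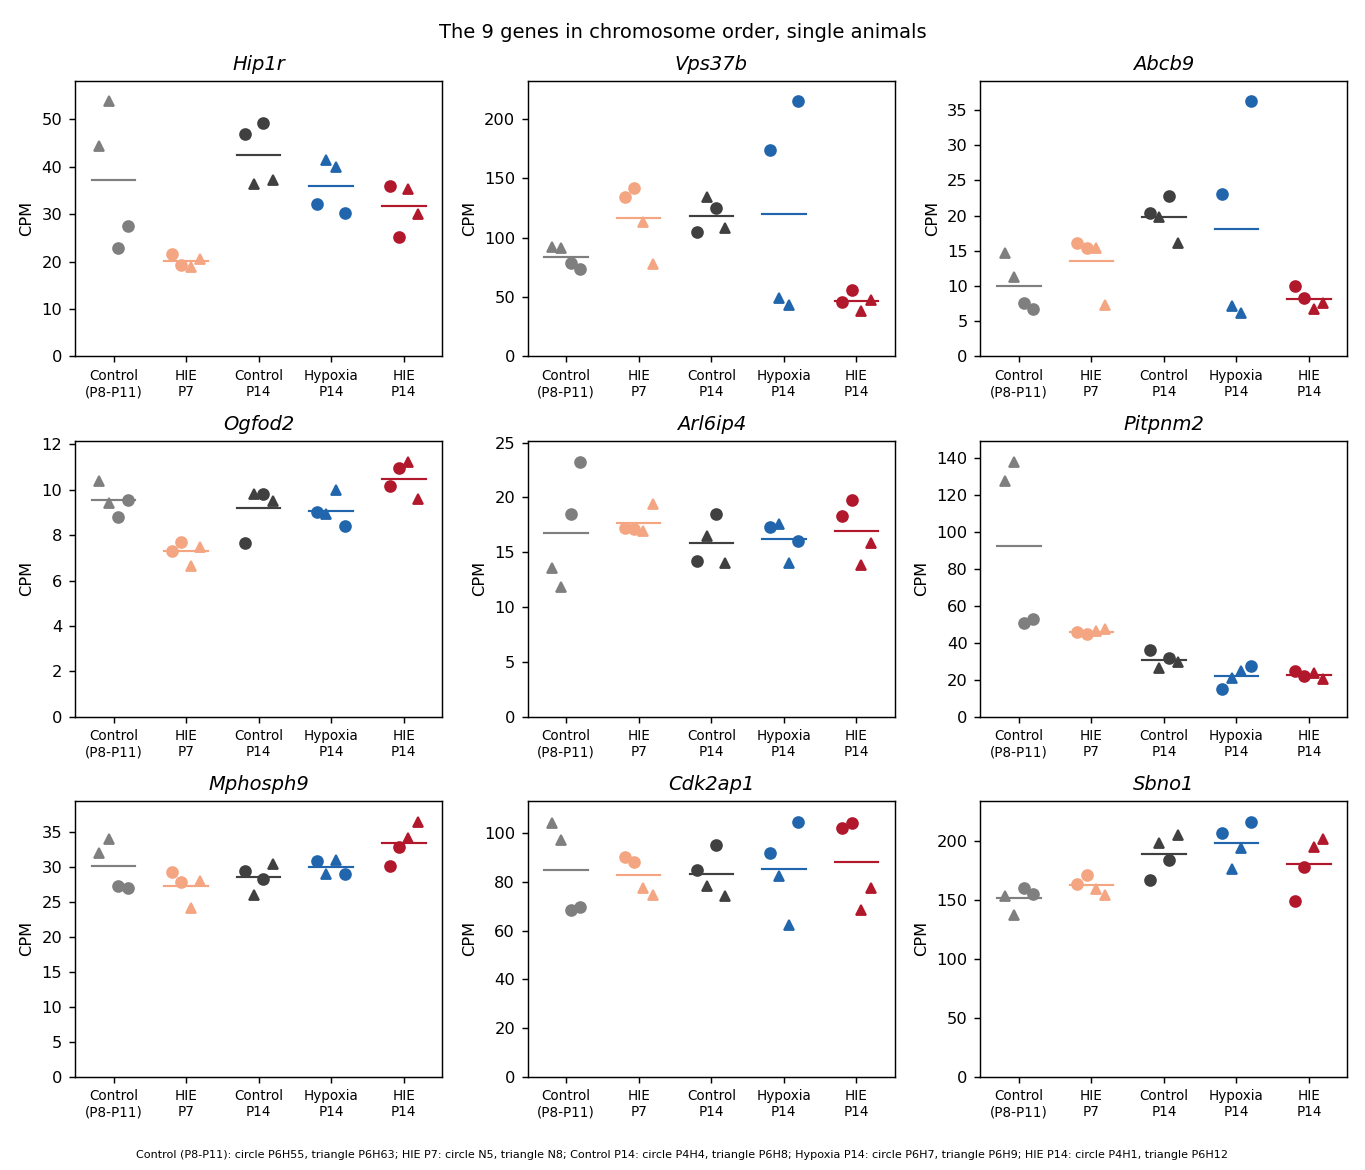
CPM of the 9 genes in chromosome order in each of the 20 animals, on linear axes from 0, with circles and triangles for the 2 litters of a group and a line at the group mean. The hypoxia litters lie more than 1 log2 unit apart without overlap for Vps37b and Abcb9 and for none of the 7 others.

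By litter, the lowest means of Vps37b were 42.9 CPM in P6H12, 46.0 CPM in P6H9 and 51.0 CPM in P4H1, and the highest was 194 CPM in P6H7. Those of Abcb9 were lowest in P6H9, P6H55 and P6H12, at 6.68, 7.13 and 7.21 CPM, and highest in P6H7, at 29.6 CPM. For both genes the 3 lowest litters overlapped among themselves. They did not overlap with the next litter in the order, which was P6H55 for Vps37b and P4H1 for Abcb9. Litter N8, later in the order for Abcb9, did overlap with P6H55 and P6H12, through its animal at 7.30 CPM. P14 and early samples were deposited in separate tables, so day and batch cannot be told apart in levels set across them.

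The closeness of Vps37b and Abcb9 was measured as Pearson's r of log2 CPM over the 20 animals after subtraction of each group's mean, which leaves the differences between litters and between animals. The r of the pair was 0.93. It was the highest of 20687 genes for each of the pair, so each was the gene most like the other. The points share litters and libraries, so r is given as a description. Over the 12 animals at P14 r was 0.96 and again the highest. Most of the spread behind this value lay in the hypoxia group, whose litters P6H7 and P6H9 stood apart. The SD of log2 CPM of Vps37b was 1.205 in that group, 0.170 in P14 controls and 0.231 in P14 HIE animals. For Abcb9 these SDs were 1.250, 0.208 and 0.231. The r over all 20 animals leans on the same litters, and r without the hypoxia group at P14 was not tested. Over the 8 early animals r was 0.88, at rank 53 of the genes most like Vps37b and rank 124 of those most like Abcb9.

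The log2 difference between Vps37b and Abcb9 varied less than either gene, with an SD of 0.34 over the 20 animals beside 0.72 for Vps37b and 0.75 for Abcb9. The 9 members form 36 pairs, of which the second closest was Hip1r and Pitpnm2, at r = 0.79. The genes outside the members most like Vps37b were Ywhah (r = 0.87), Srsf4 (0.84), Smurf2 (0.83), Otud1 (0.83) and Pias3 (0.83), and those most like Abcb9 were Bend5 (0.93), Gm13861 (0.87), Zfp459 (0.84), Map4k5 (0.82) and Zfp189 (0.81). Distance along the chromosome did not order the values, since Ogfod2, Arl6ip4, Pitpnm2 and Mphosph9 had r between -0.19 and 0.05 with Vps37b, whereas Cdk2ap1, farther away, had 0.65. Elsewhere in the window Mtrfr, Kmt5a, Atp6v0a2 and Rilpl1 had r of 0.79, 0.64, 0.62 and 0.59 with Vps37b. In the opposite direction Lrrc43 and Cfap251 had -0.63 and -0.57. Over the 8 early animals these genes had 0.67, -0.69, 0.07, -0.11, 0.42 and 0.35, in the same order.

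**Figure D4:**
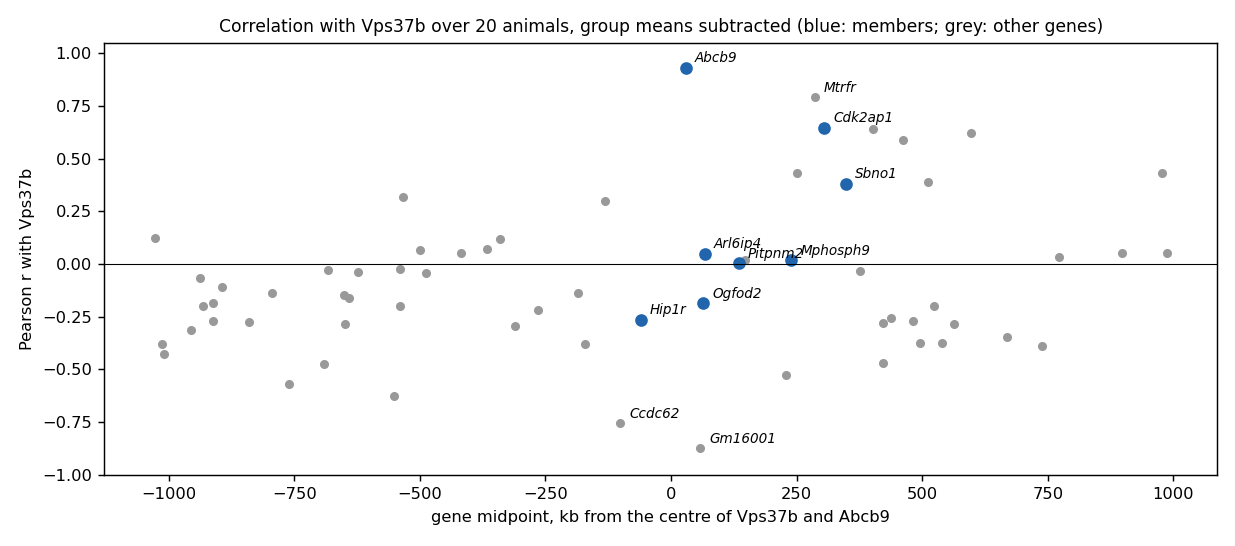
Pearson's r with Vps37b over 20 animals after subtraction of group means, for tested genes within 1 Mb, against the distance of the gene's midpoint from the centre of the pair in kb. Abcb9 stands at 0.93, and Gm16001 and Ccdc62, which flank the pair at 58.6 and -101.2 kb, stand lowest at -0.87 and -0.76.

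Gm16001 and Ccdc62 ran opposite to the pair. For Gm16001 r was -0.87 with Vps37b, the second lowest of all genes, and -0.86 with Abcb9, the lowest of all genes. Over the 8 early animals r was -0.65 with Vps37b, at rank 378 from the lowest, and -0.69 with Abcb9, at rank 826. The SD of its log2 CPM was 1.51 in the hypoxia group and 0.22 to 0.47 in the other groups. In the hypoxia animals Gm16001 had 1.52 and 0.53 CPM in litter P6H7 and 5.42 and 4.42 CPM in litter P6H9. At P14 it had 2.26 to 3.16 CPM in controls and 3.52 to 5.04 CPM in HIE animals. At P7 the N8 animal with low Vps37b and Abcb9 had 7.05 CPM of Gm16001, while the other 3 HIE animals had 3.36 to 4.10 CPM.

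Ccdc62 had r = -0.76 with each gene of the pair over all 20 animals, and -0.69 with Vps37b and -0.65 with Abcb9 over the 8 early animals. It had 2.92 and 1.03 CPM in P6H7, 4.2 and 4.57 CPM in P6H9, 2.05 to 3.24 CPM in P14 controls and 3.32 to 6.04 CPM in P14 HIE animals. At P7 the log2 fold change of HIE over control was -0.65 (SE 0.306, adjusted p = 0.201) for Gm16001 and -0.64 (SE 0.185, adjusted p = 0.150) for Ccdc62 by edgeR's quasi-likelihood test, neither of which passed. At P14 every animal of litters P4H1, P6H12 and P6H9 had more of both transcripts, and less Vps37b and Abcb9, than every animal of litters P4H4, P6H8 and P6H7. Gm16001 and Ccdc62 have few reads, so their single values carry more counting error than those of Vps37b.

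**Figure D5:**
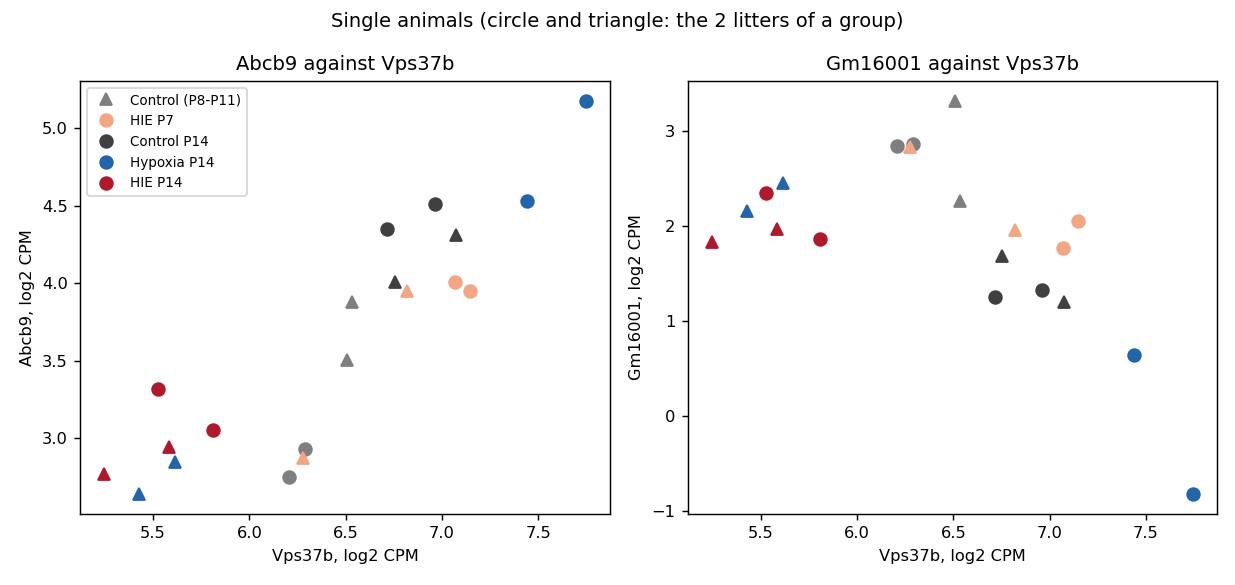
Log2 CPM of Abcb9 (left) and of Gm16001 (right) against log2 CPM of Vps37b, 1 point for each of the 20 animals, coloured by group, with circles and triangles for the 2 litters of a group. Abcb9 rises with Vps37b (r = 0.93 within groups) and Gm16001 runs the other way (r = -0.87), and the 2 P6H7 hypoxia animals lie at one end of both plots.

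Among genes that act with Vps37b no change passed the test. Of 28 other ESCRT genes, all of them tested, 0 were called in any of the 4 comparisons by edgeR's quasi-likelihood test, and the number with an unadjusted p under 0.05 was 1 in P14 HIE against control, 2 in hypoxia against control, 1 in HIE against hypoxia and 5 at P7, where 9.87%, 9.53%, 4.53% and 27.3% of all genes had one. By DESeq2, 2 of the 28 were called at P7, beside 14.1% of all genes. In P14 HIE against control their median log2 fold change was 0.06, and the largest were -0.55 for Vps37d, 0.27 for Chmp1a and 0.24 for Chmp4c. Vps37a, Vps37c and Vps37d can take the place of Vps37b in ESCRT-I, and Chmp1a and Chmp4c belong to ESCRT-III, which cuts the neck of the forming vesicle.

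Of 10 other genes of the ABCB family that were listed, 9 were tested, as Abcb11 did not pass the filter. By edgeR's quasi-likelihood test 0 were called in any of the 4 comparisons, with an unadjusted p under 0.05 for 2 at P7 and for 0 in the others, and DESeq2 called 2 of the 9 at P7, beside 14.1% of all genes. In P14 HIE against control their median log2 fold change was 0.15, and the largest were 0.50 for Abcb1b, 0.44 for Abcb1a and 0.28 for Tap2. Abcb1a and Abcb1b encode drug efflux pumps, and Tap2 is a subunit of the transporter that loads peptides for presentation on MHC class I.

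Among 12 paralogues of the members 0 were called in any comparison by edgeR's quasi-likelihood test, and the number with an unadjusted p under 0.05 was 2, 3, 1 and 4 in the same order of comparisons. DESeq2 called 2 of them in hypoxia against control, beside 0.927% of all genes, and 2 at P7, beside 14.1%. Their largest log2 fold changes in P14 HIE against control were -0.55 for Vps37d, -0.38 for Pitpnm3 and 0.28 for Tap2. The counting tool divides reads that match several genes, which leaves counts with a fractional part. Ogfod2, Arl6ip4, Pitpnm2 and Mphosph9 had whole-number counts in all 20 animals, Abcb9 in 15, Cdk2ap1 in 1, and Vps37b, Hip1r and Sbno1 in 0. Values of the genes without whole counts depend in part on that division.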

How the data were processed

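RNA of CD11b+ cells from 20 mouse pups was sequenced in 22 libraries. The authors mapped reads to GRCm39 with STAR, counted with RSEM and deposited expected counts per gene without scaling, in one table for P14 and another for the early samples. Here these estimated counts were summed per animal, rounded and tested with the quasi-likelihood test of edgeR 4.0.16 (R 4.3.3), with TMM scaling, its filter on low counts, only the 2 groups compared and Benjamini-Hochberg adjustment over all tested genes at 0.05. The SE of a log2 fold change was derived from the test statistic. DESeq2 1.42.0 was an alternative. Of 56691 genes, 56017 matched GENCODE M39, the source of symbols, positions and transcript starts. Promoter bases were read from the GRCm39 genome. The test was tested on simulated data. Those counts were drawn for each animal without differences between litters, so they do not show how the test behaves with such differences.

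Depth was 29751540 to 83469067 counts per library, and 3 counts were taken as the floor. Counting error alone enters it. Beside the 9 members, the genes named were window genes called or with the 5 largest changes in P14 HIE against control, called genes and the 3 largest changes of each list, and the 5 genes most like Vps37b and Abcb9. Ccdc62 and Gm16001 met that rule, and their further values were chosen after they had been seen. Mtrfr, Kmt5a, Atp6v0a2, Rilpl1, Lrrc43 and Cfap251 did not meet it and were named for their r after it had been seen. The members, lists and window were chosen with earlier results of these data known. The p-values measure only the spread between these animals, which share litters. The behavioural, MRI and single-cell experiments were not analysed here.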

Additional observations from a re-analysis of the deposited data

Results flagged for a closer look

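Among the 45 sets of 4 animals given by 9 genes and 5 groups, 3 had 1 animal far from the others, with a gap to the nearest animal that exceeded Dixon's critical share of the group's range. Chance gives about 1 such set in 20. Abcb9 was lowest in HIE replicate 4 at P7, an animal of litter N8, at 7.30 CPM, with a gap of 0.925 of the range, and the same animal had the lowest Vps37b of its group. Arl6ip4 was highest in that animal, at 19.4 CPM, with a gap of 0.881. Ogfod2 was lowest in control replicate 1 at P14, an animal of litter P4H4, at 7.67 CPM, with a gap of 0.847.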

How the results depend on the processing

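In P14 HIE against control edgeR called 1 member and 1 gene of the window, beside 0.00478% of all genes. Both counts were 2 with library size only (0.00955% of all genes) and 2 without the filter on low counts (0.00828%). With P4H or P6H, the start of the animal's name, as a covariate they were 2 (0.00955%). This covariate is coarser than the litter. DESeq2 gave 3, adding Abcb9 and Pitpnm2, beside 2.71% of all genes. The counts were 0 with the 3 P14 groups in 1 fit and 0 to 2 with each animal left out. The call of Vps37b was lost without HIE replicate 1 or 4 and without control replicate 2 or 3, with adjusted p of 0.0643, 0.0791, 0.0622 and 0.106 by edgeR, and Abcb9 was called without control replicate 4 (0.0346), among 6 genes in all. All log2 fold changes of Vps37b, Abcb9, Hip1r and Pitpnm2 stayed below 0 in this comparison. Windows of 0.5 and 2 Mb gave the same counts as 1 Mb in each comparison. Over all genes DESeq2 called 490 where edgeR called 1, 164 where edgeR called 2 in hypoxia against control, 15 where it called 2 in HIE against hypoxia, and 3024 where it called 15 at P7.

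In hypoxia against control, 0 members, 0 window genes and 0 paralogues were called. With P6H7 animals only the counts were 1, 6 and 1, in a fit that called 774 genes in all (3.55%), with P6H9 animals only 2 members and 2 window genes were called among 16 genes in all (0.073%), and DESeq2 called 2 paralogues and 1 window gene among 164 (0.927%). The log2 fold change turned to 0.67 for Vps37b and 0.54 for Abcb9 with P6H7 only, to 0.025 for Ogfod2, -0.020 for Arl6ip4, -0.22 for Cdk2ap1 and -0.043 for Sbno1 with P6H9 only, and to -0.070 for Sbno1 with P6H animals only. With each animal left out it ran from -0.46 to 0.26 for Vps37b, -0.74 to 0.12 for Abcb9, -0.050 to 0.082 for Arl6ip4, -0.11 to 0.12 for Cdk2ap1, -0.0057 to 0.073 for Mphosph9 and -0.023 to 0.088 for Sbno1. In HIE against hypoxia, with P6H7 only, 1 member and 1 window gene were called among 4 genes in all, and Hip1r turned to 0.034 and Cdk2ap1 to -0.15. With P6H9 only Vps37b turned to 0.036 and Abcb9 to 0.30, and with P6H animals only Arl6ip4 turned to -0.12, Cdk2ap1 to -0.22 and Sbno1 to 0.0083. With each animal left out the values were -0.020 to 0.13 for Arl6ip4, -0.095 to 0.15 for Cdk2ap1 and -0.11 to 0.16 for Pitpnm2. The choice of 1 hypoxia litter was added after the data had been seen.

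At P7, where edgeR called 0 members, ESCRT, ABCB, paralogue and window genes, DESeq2 called 3, 2, 2, 2 and 11, beside 14.1% of all genes, and the P6H63 controls alone gave 5, 19, 6, 11 and 45, beside 58.5% of all genes (13904). With each animal left out these counts were 0 to 3, 0 to 6, 0 to 3, 0 to 5 and 0 to 17, the upper values without early control replicate 3, where 24.2% of all genes (5588) were called. The log2 fold change turned to -0.091 for Arl6ip4 and -0.087 for Sbno1 with library size only, to -0.26 for Arl6ip4 and 0.24 for Cdk2ap1 with the P6H55 controls, and to -0.35 for Arl6ip4, 0.0054 for Mphosph9, 0.27 for Cdk2ap1 and -0.017 for Sbno1 with the microglia marker score as a covariate. Cdk2ap1 also turned to 0.0076 with RLE factors, 0.011 without the filter and 0.0076 with DESeq2. With each animal left out the values were -0.067 to 0.30 for Arl6ip4 and -0.086 to 0.070 for Cdk2ap1. The cause of these changes was not tested. No paired analysis was possible because the groups compared share no animals or litters. With 4 animals in a group from 2 litters, calls rest on few animals, and low genes such as Gm16001 on few counts.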
